A study of Mus musculus with 4 samples.

Results

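Toll-like receptors are membrane receptors of innate immunity that recognise molecules of microbes and of damaged cells. The genes followed here are 8 receptors, Tlr1, Tlr2, Tlr4, Tlr6, Tlr7, Tlr8, Tlr9 and Tlr13, with Myd88, an adaptor they share, and Irak4, the first kinase recruited to it. They were chosen by name, and all 10 were found among the 27179 genes of the expression table. Each receptor has leucine-rich repeats that bind the ligand and a cytoplasmic TIR domain that binds adaptors. Bound receptors gather Myd88 and Irak4 into one complex, which leads to NF-kB and to the transcription of cytokines. Myeloid cells are the main blood cells that carry these receptors, and several of the receptors appear as granulocytes and monocytes mature.

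RNA was sequenced from leukemia stem cells (LSCs), the cells held to sustain an acute myeloid leukemia (AML), of a mouse model on the C57BL/6 strain. All samples came from bone marrow and were sorted for a yellow fluorescent protein (YFP), for the myeloid integrin Mac-1 and for the receptor c-Kit. The 4 samples are 2 of wild-type genotype and 2 B7-H4-null, that is, without the B7 family ligand encoded by Vtcn1. The oncogene that drives the leukemia, the age of the animals and the number of animals behind a sample are not stated in the labels, so the spread behind each p-value is that of these samples alone and may be technical.

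Values are RPKM, which count reads per kilobase of gene and are scaled to the size of the library, here 9419425 to 10814448 reads. For a gene 2 kb long, a single read was equal to 0.0462 to 0.0531 RPKM. In each pair of values replicate 1 comes first. Vtcn1 had 0 reads in wild type and 1 read in each B7-H4-null library, too few to check the genotype. The sort markers were present in every library. The Mac-1 chains were lower in both B7-H4-null libraries, Itgam with 114 and 86.9 against 82.9 and 59.9 RPKM and Itgb2 with 213 and 213 against 123 and 146 RPKM (limma adjusted p = 0.556 and 0.371), and Kit ranged from 7.19 to 24.0 RPKM with overlap. The part of this in the levels of the members was not tested. Genotypes were compared with limma on log2(RPKM + 1) over the 12107 genes that reached 1 RPKM in 2 or more libraries, with p-values adjusted over all of them. Of the 10 members 8 passed this filter, while Tlr8 and Tlr9 reached 1 RPKM in 1 library each and are given as values only. Gene positions are those of RefSeq on the mouse build GRCm38.p6.

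Myd88 was the most abundant member and Tlr8 the least, and no member passed the test between genotypes. Averaged over the 4 libraries, Myd88 stood at 56.3 RPKM, Irak4 at 18.5, Tlr2 at 13.7, Tlr1 at 8.09, Tlr13 at 7.93, Tlr6 at 2.99, Tlr4 at 2.52, Tlr7 at 1.82, Tlr9 at 0.818 and Tlr8 at 0.682 RPKM. The ranges of Myd88 and Irak4 did not overlap, nor did those of Tlr7 and Tlr9. Every other pair of neighbours in this order had ranges that overlapped over the 4 libraries, so that their order does not exceed the spread over libraries. The remaining mouse receptors were barely read: Tlr3 had 0 reads in all libraries, and Tlr5, Tlr11 and Tlr12 stayed at or below 0.134 RPKM.

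**Figure D1:**
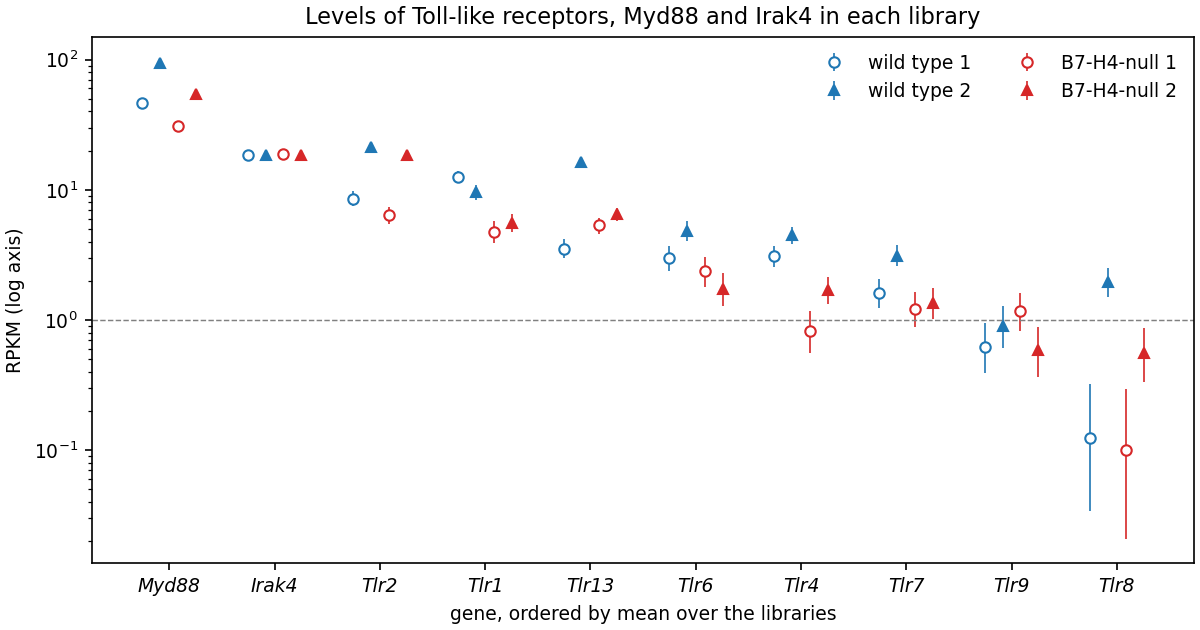
RPKM of each member (log axis) in the 4 libraries, wild type in blue and B7-H4-null in red, replicate 1 as open circles and replicate 2 as triangles, with bars for the exact 95% Poisson interval of the reads and a dashed line at 1 RPKM. Irak4 lies at 18.5 to 18.7 RPKM in all 4 libraries, while Myd88 spans 31.2 to 93.6 RPKM and Tlr8 0.101 to 1.94 RPKM.

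The comparison of the genotypes gave 0 members higher and 0 lower, against 5 genes higher (0.0413%) and 7 lower (0.0578%), in all 0.0991%, among all tested genes. At an unadjusted p under 0.05, limma had 2 members lower, Tlr1 and Tlr4, and 0 higher, where 7.2% of all tested genes were lower and 5.05% higher. Voom on reads recovered from the RPKM steps also called 0 members, where it called 5 higher and 8 lower of all 12107 tested genes. At an unadjusted p under 0.05 voom had 2 members lower and 0 higher, where 969 of the 12107 genes were lower and 576 higher. In 4 members both B7-H4-null libraries lay below both wild-type libraries, and in 0 above, against 28.0% of tested genes below and 16.0% above. With the libraries scaled by the median ratio over genes, the same 4 members were below and 1, Irak4, above, against 22.2% and 22.1% of tested genes, and quantile normalization gave the same members. The median log2 difference of the 8 tested members was −0.59, beside −0.09 over all tested genes, and 7 of the 8 lay below 0, as did 58.5% of tested genes. On simulated reads of these libraries the same test found 0 of 346 genes with a 2-fold change. It found 42 of 316 with 4-fold (13.3%) and 166 of 338 with 8-fold (49.1%), little power for the differences seen here. The simulation added counting error to a replicate spread that already holds it, which may make these shares too low. That spread was taken on log2(RPKM + 1), which compresses it for low genes and may make their shares too high. For genes with few reads the direction of the error is therefore not known. In sorted bulk cells a lower share of cells that express a gene and less RNA per cell cannot be told apart.

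Among the receptors of the cell surface, Tlr1 and Tlr4 had the largest differences between genotypes. Tlr1 (gene ID 21897, chromosome 5, 64924680 to 64933600) pairs with Tlr2 to bind triacylated lipopeptides of bacteria. It had 12.5 and 9.53 RPKM in the wild-type libraries against 4.76 and 5.55 RPKM in the B7-H4-null ones. Both B7-H4-null libraries lay below both wild-type libraries. The means were 11.0 ± 2.11 and 5.15 ± 0.56 RPKM (SD, n = 2), 2.14-fold apart, and the log2 difference was −0.96 ± 0.262 (SE, limma adjusted p = 0.291).

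Tlr4 (gene ID 21898, chromosome 4, 66827551 to 66846581), the receptor for lipopolysaccharide, was less abundant than Tlr1. Wild type had 3.07 and 4.47 RPKM, from 120 and 171 reads, and B7-H4-null had 0.828 and 1.71 RPKM, from 30 and 71 reads. The groups did not overlap, and the exact 95% counting intervals of the B7-H4-null libraries, 0.559 to 1.18 and 1.33 to 2.15 RPKM, lay below those of both wild-type libraries. The means differed 2.98-fold, with a log2 difference of −1.09 ± 0.32 (SE, adjusted p = 0.307, limma, n = 2 per group). Leaving out any 1 library kept the log2 difference of Tlr4 between −1.37 and −0.80 and that of Tlr1 between −1.14 and −0.78.

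Tlr2 (gene ID 24088, chromosome 3, 83836272 to 83841824), the shared partner of Tlr1 and Tlr6, behaved otherwise. It stood at 8.56 and 21.3 RPKM in the wild-type libraries against 6.40 and 18.7 RPKM in the B7-H4-null ones. Replicate 2 was high and replicate 1 low in both genotypes, and the groups overlapped. The difference within each genotype, 2.49-fold in wild type and 2.92-fold in B7-H4-null, was larger than the 1.19-fold between the genotype means. The log2 difference was −0.28 ± 0.561 (SE, limma adjusted p = 0.871), and it turned to 0.33 without wild type replicate 2 and to 0.43 without B7-H4-null replicate 1.

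Tlr6 (gene ID 21899, chromosome 5, 64953092 to 64970942) pairs with Tlr2 to bind diacylated lipopeptides. It had 2.995 and 4.84 RPKM in the wild-type libraries against 2.37 and 1.74 RPKM in the B7-H4-null ones, with no overlap between the groups. Its log2 difference was −0.67 ± 0.303 (SE, limma adjusted p = 0.441), and −0.39 with wild type replicate 2 left out. Tlr1 stood above Tlr6 in every library, by 4.18-fold and 1.97-fold in wild type and by 2.01-fold and 3.18-fold in B7-H4-null. The ratio of these partners of Tlr2 thus varied as much within a genotype as between them.

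Tlr1 and Tlr6 are neighbours on chromosome 5, 18.5 kb apart between their GENCODE M21 gene models, and stretches of them are identical, which bears on how their reads can be assigned. Of the 2976 stretches of 50 bases in the Tlr1 transcript, 454 (15.3%) also occur in Tlr6, and together they cover 31.4% of the coding sequence of Tlr1. The longest identical run has 229 bases, and it is shown here from GENCODE M21 transcripts (GRCm38, minus strand, coding) with 30 bases on each side. Capitals mark the bases where the genes differ, chr5:64925507-64925795 for Tlr1 and chr5:64953798-64954086 for Tlr6.
Tlr1: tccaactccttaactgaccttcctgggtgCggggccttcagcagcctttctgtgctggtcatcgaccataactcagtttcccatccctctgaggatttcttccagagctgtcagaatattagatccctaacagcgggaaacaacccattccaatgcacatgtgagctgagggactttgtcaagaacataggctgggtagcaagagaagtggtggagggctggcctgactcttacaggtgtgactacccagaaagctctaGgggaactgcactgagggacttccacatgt
Tlr6: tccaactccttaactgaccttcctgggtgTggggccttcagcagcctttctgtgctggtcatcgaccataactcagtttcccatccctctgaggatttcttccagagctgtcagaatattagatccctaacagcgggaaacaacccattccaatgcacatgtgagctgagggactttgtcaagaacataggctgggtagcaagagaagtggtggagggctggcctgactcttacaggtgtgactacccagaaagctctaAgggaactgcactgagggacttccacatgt
Over these 289 bases the genes differ at 2 positions. A read that lies inside the run fits both genes equally, and how such reads were treated is not stated, so the separate levels of Tlr1 and Tlr6 are uncertain. Tlr2, Tlr4, Tlr7, Tlr8, Tlr9 and Tlr13 shared 0 stretches of 50 bases with transcripts of other genes.

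Among the receptors of endosomes, which sense nucleic acids, Tlr13 was the most abundant. Tlr13 (gene ID 279572, chromosome X, 106143275 to 106160493), a sensor of bacterial ribosomal RNA, had 3.54 and 16.4 RPKM in the wild-type libraries against 5.32 and 6.47 RPKM in the B7-H4-null ones. Wild type replicate 2 stood far above the other 3 libraries, which lay within 1.83-fold of each other, and the groups overlapped. The log2 difference was −0.37 ± 0.584 (SE, limma adjusted p = 0.832), and it went to −1.34 when wild type replicate 1 was left out and to 0.60 when replicate 2 was.

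Tlr7 and Tlr8 lie 40.6 kb apart on chromosome X, between their GENCODE M21 gene models, and both sense single-stranded RNA. Tlr7 (gene ID 170743, 167303380 to 167330574) had 1.61 and 3.12 RPKM in the wild-type libraries against 1.22 and 1.36 RPKM in the B7-H4-null ones. Its groups did not overlap, but only wild type replicate 2 stood clear, since the exact 95% intervals of wild type replicate 1, 1.23 to 2.06 RPKM, and of the B7-H4-null libraries, 0.882 to 1.64 and 1.02 to 1.77 RPKM, overlapped. The log2 difference was −0.52 ± 0.316 (SE, limma adjusted p = 0.566), and −0.19 without wild type replicate 2.

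Tlr8 (gene ID 170744, 167241123 to 167264329) varied most of all members. It had 0.125 and 1.94 RPKM in the wild-type libraries, from 4 and 61 reads, against 0.101 and 0.556 RPKM in the B7-H4-null ones, from 3 and 19 reads. Replicate 2 was the higher library in both genotypes, 15.6-fold in wild type (exact 95% interval 5.78 to 59.0) and 5.52-fold in B7-H4-null (1.62 to 29.1), intervals that cover counting error only. Tlr7 was thus 12.9 and 12.1 times Tlr8 in the libraries numbered 1 and 1.60 and 2.44 times Tlr8 in those numbered 2.

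Tlr9 (gene ID 81897, chromosome 9, 106222598 to 106226876), which binds unmethylated CpG DNA, was the one receptor whose mean was higher in B7-H4-null. It had 0.625 and 0.899 RPKM in the wild-type libraries against 1.16 and 0.586 RPKM in the B7-H4-null ones, from 22, 31, 38 and 22 reads. The highest and the lowest library were both B7-H4-null, so the difference between the means, 0.762 ± 0.194 and 0.874 ± 0.407 RPKM (SD, n = 2), was within the spread of 1 group.

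Summed over each class, the surface receptors made up most of the receptor RNA per length in every library. Tlr1, Tlr2, Tlr4 and Tlr6 together had 27.2 and 40.1 RPKM in the wild-type libraries against 14.3 and 27.7 RPKM in the B7-H4-null ones. Tlr7, Tlr8, Tlr9 and Tlr13 together had 5.89 and 22.3 RPKM in the wild-type libraries against 7.80 and 8.97 RPKM in the B7-H4-null ones. The surface share was 82.2% and 64.2% in wild type and 64.8% and 75.5% in B7-H4-null, so it differed more between wild-type libraries than between genotypes.

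The 3 X-linked receptors can be set beside Xist, the RNA of the inactive X chromosome. Xist had 64.5 and 37.7 RPKM in the wild-type libraries against 64.1 and 38.0 RPKM in the B7-H4-null ones, and the Y-linked genes Ddx3y, Eif2s3y, Kdm5d and Uty had 0 to 3 reads per library. Xist was thus higher in replicate 1 of both genotypes. Tlr8 and Tlr13 were lower in replicate 1 of both genotypes, and Tlr7 was lower in that of wild type. In B7-H4-null the Tlr7 difference was within counting error, with the other library 1.11 times replicate 1 (exact interval 0.734 to 1.7). The part of Xist in the levels of these receptors was not tested.

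Below the receptors, Myd88 varied between libraries and Irak4 hardly did in the values as deposited. Myd88 (gene ID 17874, chromosome 9, 119335934 to 119340018) joins the TIR domain of the receptors to the death domain of the Irak kinases. It had 46.3 and 93.6 RPKM in the wild-type libraries, from 894 and 1772 reads, against 31.2 and 54.2 RPKM in the B7-H4-null ones, from 559 and 1117 reads. Replicate 2 was 2.02-fold above replicate 1 in wild type and 1.74-fold in B7-H4-null, and the groups overlapped because B7-H4-null replicate 2 exceeded wild type replicate 1. The genotype means were 69.9 ± 33.5 and 42.7 ± 16.3 RPKM (SD, n = 2), with a log2 difference of −0.67 ± 0.419 (SE, limma adjusted p = 0.575). Leaving out wild type replicate 2 gave −0.17, and leaving out replicate 1 gave −1.17.

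Irak4 (gene ID 266632, chromosome 15, 94543613 to 94568317), the kinase that phosphorylates Irak1, had 18.46 and 18.53 RPKM in the wild-type libraries against 18.68 and 18.46 RPKM in the B7-H4-null ones, from 497 to 564 reads. The highest library was 1.01 times the lowest, the smallest such ratio among the 12107 tested genes, whose median was 1.69. Counting alone leaves a wider margin, with exact 95% intervals from 16.9 to 20.4 RPKM, so this closeness is a description of these 4 values and no measure of precision. It also depended on the scaling: by the median ratio Irak4 had 17.9 and 17.6 RPKM in the wild-type libraries against 20.1 and 18.3 RPKM in the B7-H4-null ones, 1.14-fold from lowest to highest, and 2.28% of tested genes varied as little or less. The log2 difference was 0.01 ± 0.234 (SE, limma adjusted p = 0.996). Myd88 was 2.51 and 5.05 times Irak4 in wild type and 1.67 and 2.94 times Irak4 in B7-H4-null, a ratio set almost wholly by Myd88.

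Both genes overlap a gene on the opposite strand in GENCODE M21, and the TruSeq v2 library kit named in the labels does not mark strand. Of the 50-base stretches of the Myd88 transcript 9.16% also occur in Acaa1a, a peroxisomal thiolase, on the other strand, and 7.5% of those of Irak4 occur in other genes, Twf1 (an actin-binding protein, opposite strand) and Gm4887. Acaa1a had 21.4 and 14.7 RPKM in the wild-type libraries against 18.1 and 22.8 RPKM in the B7-H4-null ones, and Twf1 had 18.5 and 29.0 against 8.32 and 18.5 RPKM. Acaa1a was lowest where Myd88 was highest, in wild type replicate 2. Twf1 varied 3.48-fold over the libraries in which Irak4 varied 1.01-fold. The part of reads from the overlapping genes in the values of Myd88 and Irak4 was not tested.

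**Figure D2:**
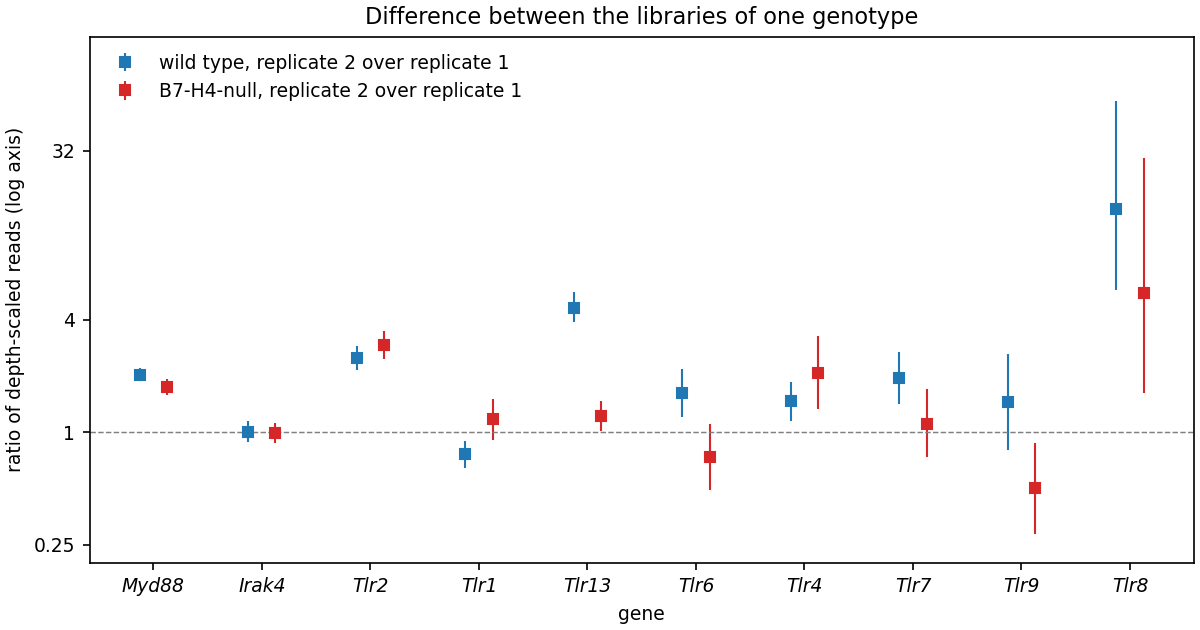
Reads of each member in replicate 2 over replicate 1, scaled to library totals (log axis), for wild type in blue and B7-H4-null in red, with exact 95% binomial intervals that cover counting error only and a dashed line at 1. Myd88, Tlr2, Tlr4, Tlr8 and Tlr13 lie above 1 with their intervals in both genotypes, and Irak4 has 1.0 and 0.988.

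Libraries of one genotype thus differed for most members by more than counting error. In wild type the exact interval of the ratio of replicate 2 to replicate 1 lay above 1 for Tlr2, Tlr4, Tlr6, Tlr7, Tlr8, Tlr13 and Myd88 and below 1 for Tlr1. In B7-H4-null it lay above 1 for Tlr2, Tlr4, Tlr8, Tlr13 and Myd88 and below 1 for Tlr9. Of the 8 tested members, 7 were higher in wild type replicate 2 than in replicate 1 and 6 were higher in B7-H4-null replicate 2, against 53.5% and 61.2% of all tested genes. Both libraries numbered 2 exceeded both numbered 1 for 3 members, against 22.6% of tested genes. Of the tested members Tlr2 alone was at least 2-fold higher in replicate 2 of both genotypes, as were 1.31% of tested genes. The labels give the numbers no shared source, so these are values of single libraries.

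Members with the same course over the 4 libraries were found by the Euclidean distance of their centred log2(RPKM + 1) profiles, where 0 is an identical course. The closest pairs were Tlr6 and Tlr7 (0.32), Tlr9 and Irak4 (0.349), Tlr8 and Myd88 (0.388) and Tlr8 and Tlr13 (0.442). Distances of low genes are compressed by the pseudocount. Outside the members, the genes nearest to Myd88 among 8993 with a mean of at least 5 RPKM were Nectin2, a cell adhesion protein (0.0341), Evi2a, a membrane protein encoded within an intron of Nf1 (0.0492), and Lrrc25, a leucine-rich repeat protein of myeloid cells (0.0781). Nectin2 had 4.29 and 9.62 RPKM in the wild-type libraries against 2.65 and 5.37 RPKM in the B7-H4-null ones, and 29 genes lay within a distance of 0.25. Over 4 libraries such likeness is a description.

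The start regions of Tlr8 and of its nearest members by this distance, Myd88 and Tlr13, were read from RefSeq windows of GRCm38.p6. Wild type replicate 2 was the highest library for these 3 and also for Tlr2, Tlr4, Tlr6 and Tlr7, so the choice of windows is one of display. The 250 bases before the start site are shown 5′ to 3′ on the strand of the gene, with CG dinucleotides in capitals, for Myd88 (chr9:119340019-119340268, minus strand), Tlr8 (chrX:167264330-167264579, minus strand) and Tlr13 (chrX:106143025-106143274, plus strand).
Myd88: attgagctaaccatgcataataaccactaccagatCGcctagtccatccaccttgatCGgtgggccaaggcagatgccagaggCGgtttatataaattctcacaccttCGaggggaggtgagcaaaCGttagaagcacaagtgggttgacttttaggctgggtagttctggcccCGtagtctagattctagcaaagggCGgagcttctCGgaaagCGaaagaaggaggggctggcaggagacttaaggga
Tlr8: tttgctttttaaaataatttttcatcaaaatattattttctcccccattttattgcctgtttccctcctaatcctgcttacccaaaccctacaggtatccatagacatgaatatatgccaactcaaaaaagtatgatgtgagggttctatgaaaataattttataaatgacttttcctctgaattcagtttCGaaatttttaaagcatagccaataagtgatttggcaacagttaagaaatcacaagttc
Tlr13: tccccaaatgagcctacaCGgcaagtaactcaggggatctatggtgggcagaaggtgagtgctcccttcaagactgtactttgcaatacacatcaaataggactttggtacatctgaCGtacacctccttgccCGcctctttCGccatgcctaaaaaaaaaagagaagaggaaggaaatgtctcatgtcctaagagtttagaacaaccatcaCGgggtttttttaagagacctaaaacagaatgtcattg
The windows hold 9, 1 and 5 CG dinucleotides, beside a median of 6 (quartiles 2 and 16) over 32851 windows of the same length. Tlr9 had 0 and Irak4 14. The letters GGAAGT, the core bound by PU.1 and other ETS factors of myeloid cells, were searched on both strands. They occurred in 3 of the 10 windows of the 8 members matched, 1 each of Tlr1, Tlr2 and Tlr6, and in 19.7% of all windows. The longer form GAGGAAGT, which contains the first, occurred in 1 window of Tlr1 and in 2.44% of all windows. A match is a description of letters only.

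**Figure D3:**
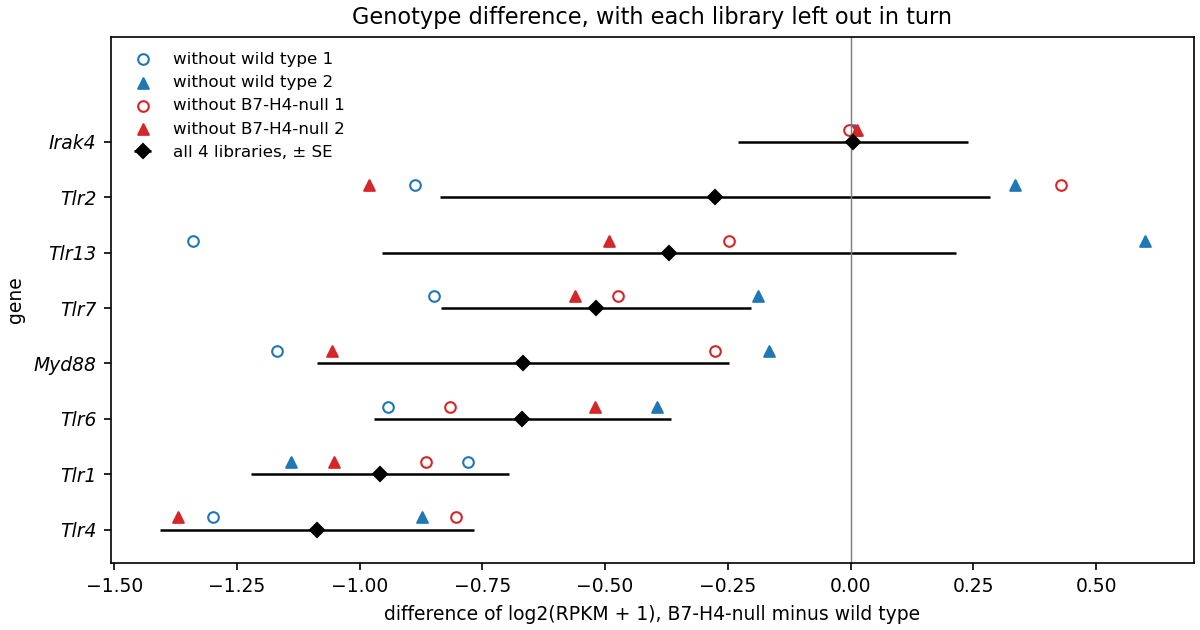
Difference of log2(RPKM + 1) between B7-H4-null and wild type for the 8 tested members (black diamonds, ± SE), with the difference after leaving out each library in turn above it. Tlr4, Tlr1, Tlr6, Myd88 and Tlr7 stay below 0 throughout, Tlr2 and Tlr13 fall on both sides of 0, and Irak4 lies at 0.01.

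The co-receptors and trafficking proteins of the receptors went both ways. Of 19 listed genes 17 were tested, both B7-H4-null libraries were higher than both wild-type ones for 5 and lower for 4, where 16.0% of all tested genes were higher and 28.0% lower. Their median log2 difference was −0.11, and leaving out 1 library moved it between −0.22 and 0.16. The limma test called 0 of them in either direction, with 1 higher against 1 lower at an unadjusted p under 0.05, where 5.05% and 7.2% of all tested genes stand. Voom also called 0 genes in this and in each of the lists that follow. Lbp, which hands lipopolysaccharide to Cd14, had 125 and 132 RPKM in the wild-type libraries against 79.9 and 84.7 RPKM in the B7-H4-null ones (limma adjusted p = 0.37). Ly86, the partner of the Tlr4-like receptor Cd180, had 46.7 and 95.3 against 113 and 151 RPKM (limma adjusted p = 0.386). Ctsl, a protease that trims endosomal receptors, had 57.7 and 41.2 against 381 and 69.1 RPKM, so that B7-H4-null replicate 1 set its mean (limma adjusted p = 0.408). Nrros (Lrrc33), a leucine-rich repeat protein, had 148 and 115 against 67.8 and 102 RPKM (limma adjusted p = 0.462).

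The adaptors, kinases and factors below the receptors lay mostly on the low side in B7-H4-null. Of 25 tested genes 15 were lower and 2 higher in each B7-H4-null library than in both wild-type ones, against 28.0% and 16.0% of all tested genes, and the median log2 difference was −0.41. The limma test called 0, with 7 lower and 0 higher at an unadjusted p under 0.05, against 7.2% and 5.05% of all tested genes. Tirap, which brings Myd88 to Tlr2 and Tlr4, had 8.40 and 11.7 RPKM in the wild-type libraries against 3.36 and 6.34 RPKM in the B7-H4-null ones (limma adjusted p = 0.344). Traf3, an adaptor of the interferon branch, had 20.1 and 21.6 against 9.53 and 13.6 RPKM (limma adjusted p = 0.331). Peli1, a ubiquitin ligase of the Irak complex, had 10.2 and 12.2 against 5.85 and 7.03 RPKM (limma adjusted p = 0.345). Tab3, which links ubiquitin chains to the kinase Tak1, had 5.14 and 6.36 against 2.20 and 3.39 RPKM (limma adjusted p = 0.334).

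The inhibitors of the pathway split. Of 18 tested genes 9 were lower and 5 higher in each B7-H4-null library than in both wild-type ones, against 28.0% and 16.0% of all tested genes. Their median log2 difference was −0.26. In limma 0 were past the test, with 3 higher against 2 lower at an unadjusted p under 0.05, against 5.05% and 7.2% of all tested genes. The higher ones include Tnfaip3, the ubiquitin editor A20, with 5.96 and 5.37 RPKM in wild type against 31.1 and 9.64 RPKM in B7-H4-null, and Socs1, a suppressor of cytokine signalling, with 8.40 and 5.61 against 43.2 and 13.3 RPKM (limma adjusted p = 0.334 and 0.322). In both, B7-H4-null replicate 1 was the highest library by over 3-fold. Tank, a Traf-binding protein, had 34.5 and 42.9 against 24.6 and 19.5 RPKM, and Otud7b, a deubiquitinase, 5.78 and 8.25 against 3.93 and 3.71 RPKM (limma adjusted p = 0.333 and 0.369).

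Other receptors that signal through Myd88 or regulate those that do were few. Of 8 listed genes 5 were tested, both B7-H4-null libraries were lower for 1 and higher for 0 (28.0% and 16.0% over all tested genes), and their median log2 difference was −0.12. In limma 0 passed the test, with 1 lower at an unadjusted p under 0.05, against 7.2% of all tested genes. The lower gene in both counts was Il1rl2, which passed the filter through the wild-type libraries only, so that its direction was fixed. Il1rl2, the receptor of interleukin-36, had 5.71 and 2.32 RPKM in the wild-type libraries against 0.436 and 0.616 RPKM in the B7-H4-null ones, a log2 difference of −1.63 ± 0.382 (SE, limma adjusted p = 0.231). Il1r2, a decoy receptor of interleukin-1, had 13.4 and 87.6 against 1.90 and 38.4 RPKM, with replicate 2 the higher library in both genotypes (limma adjusted p = 0.625).

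Among the early target genes of the pathway that passed the filter, most had higher values in B7-H4-null. Of 22 listed genes 12 were tested, both B7-H4-null libraries were higher for 7 and lower for 1, against 16.0% and 28.0% of all tested genes. In limma 0 were past the test and 5 were higher against 1 lower at an unadjusted p under 0.05, against 5.05% and 7.2% of all tested genes. Among the 7 and the 5 was Ptgs2, with 0.380 and 0.461 RPKM in wild type against 15.3 and 1.31 RPKM in B7-H4-null. Ptgs2 reached 1 RPKM in the B7-H4-null libraries only, so the filter fixed its direction. The values of Cxcl1, which was not tested, ran the opposite way, 0.206 and 0.632 against 0.111 and 0 RPKM, from 0 to 6 reads. The median log2 difference of the 12 was 1.35, and without the filter on low values it was 0.66 over 20 genes. With B7-H4-null replicate 1 left out the median of the 12 was 0.65, and with replicate 2 left out 1.94. Nfkbiz, an IkB protein of the nucleus, had 8.29 and 9.29 RPKM in the wild-type libraries against 66.0 and 28.0 RPKM in the B7-H4-null ones, and the chemokines Ccl4 and Ccl3 had 6.42 and 21.7 against 71.6 and 48.3 RPKM and 65.0 and 243 against 583 and 495 RPKM (limma adjusted p = 0.15, 0.231 and 0.293). Lcn2, an iron-binding protein of neutrophil granules, was the lower one, with 1771 and 1433 against 617 and 751 RPKM (limma adjusted p = 0.231).

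**Figure D4:**
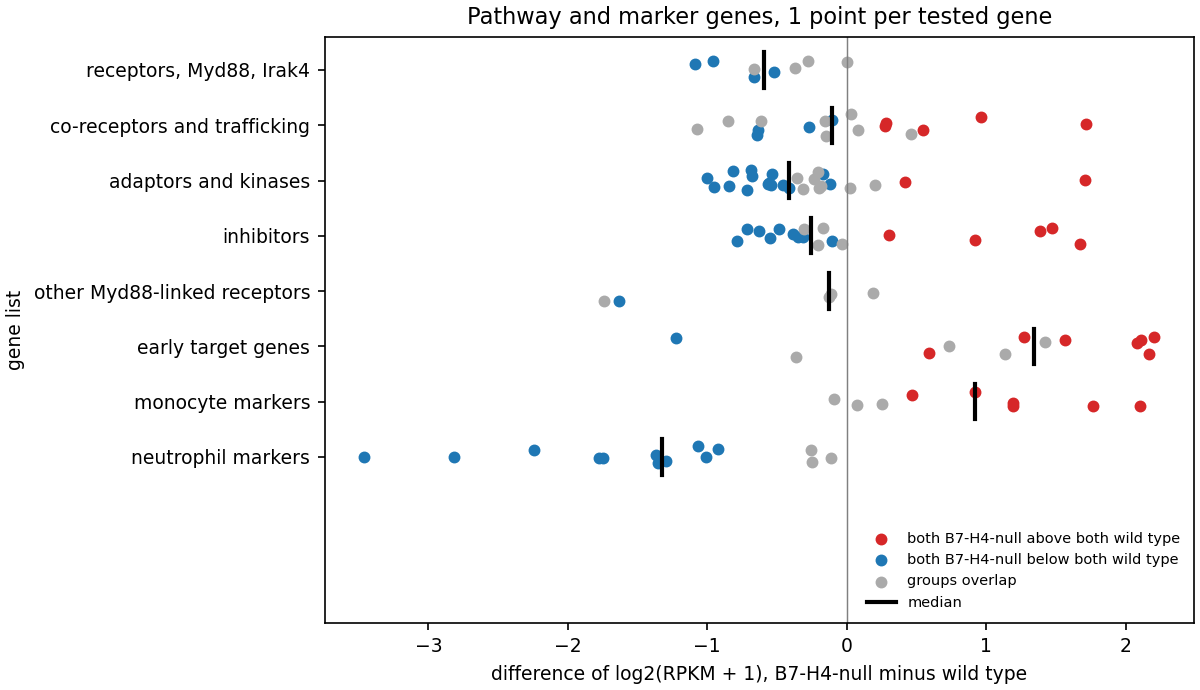
Difference of log2(RPKM + 1), B7-H4-null minus wild type, for each tested gene of the lists (1 point per gene), in red where both B7-H4-null libraries lie above both wild-type libraries, in blue where both lie below and in grey where the groups overlap, with a black bar at the median. The median of the receptors with Myd88 and Irak4 is −0.59, that of the early target genes 1.35, that of the monocyte markers 0.92 and that of the neutrophil markers −1.33. Cx3cr1, Treml4, Ptgs2 and Il1rl2 passed the filter through a single genotype, which fixed their direction.

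Markers of myeloid maturation also had values that did not overlap between the groups, though limma called 0 of them, and their part in the levels of the receptors was not tested. All 14 neutrophil markers were tested, both B7-H4-null libraries were lower for 11 and higher for 0, against 28.0% and 16.0% of all tested genes. At an unadjusted p under 0.05 were 10 lower, against 7.2% of all tested genes. The summed level of the list was 23770 and 13910 RPKM in wild type against 6971 and 8678 RPKM in B7-H4-null. S100a8, S100a9, Camp and Ngp held most of this sum. Csf3r, Stfa2l1 and Padi4 overlapped between the groups, Csf3r with 37.8 and 18.9 against 29.2 and 20.8 RPKM. Cd177 had 155 and 121 against 34.2 and 44.9 RPKM (limma adjusted p = 0.13). Of 14 monocyte and macrophage markers 9 were tested, both B7-H4-null libraries were higher for 6 and lower for 0, against 16.0% and 28.0% of all tested genes. Among the 6, Cx3cr1 and Treml4 reached 1 RPKM in the B7-H4-null libraries only, so the filter fixed their direction. At an unadjusted p under 0.05 were 5 higher, Cx3cr1 and Treml4 among them, against 5.05% of all tested genes. The summed level of the list was 980 and 1219 against 1605 and 1691 RPKM. Most of it came from Ly6c2, with 843 and 1079 against 1201 and 1458 RPKM (limma adjusted p = 0.571). Csf1r, Ccr2 and Adgre1 overlapped between the groups, Csf1r with 18.3 and 31.8 against 17.3 and 29.6 RPKM. Cd68, a lysosomal protein of macrophages, had 60.5 and 63.4 against 147 and 139 RPKM (limma adjusted p = 0.18). The defining macrophage genes C1qa, C1qb, C1qc, Mertk and Fcgr1 were at or below 1.22 RPKM in every library and were not tested. The values of C1qa and C1qc ran the opposite way to the 6, without overlap and from few reads. C1qa had 0.729 and 0.465 against 0.393 and 0.171 RPKM, and C1qc had 1.22 and 0.573 against 0.201 and 0.351 RPKM.

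Markers of other blood cells were near 0 for the most part. Of 12 dendritic cell markers 7 stayed under 1 RPKM in all libraries, Siglech and Cd209a among them, and the summed level, 60.02 and 99.1 RPKM in wild type against 184 and 230.5 RPKM in B7-H4-null, lay mostly in Flt3, Bst2, Tcf4 and H2-Ab1. These 4 were tested, and both B7-H4-null libraries were higher for 3 and lower for 0, against 16.0% and 28.0% of all tested genes. The limma test called 0, with 2 higher at an unadjusted p under 0.05, against 5.05% of all tested genes. Flt3 had 8.90 and 23.0 RPKM in wild type against 99.3 and 103 RPKM in B7-H4-null (limma adjusted p = 0.13). H2-Ab1 overlapped between the groups. Of 8 B cell markers 6 stayed under 1 RPKM, and the summed level of the list was 36.8 and 46.4 against 60.9 and 63.8 RPKM, nearly all from Cd79b. Vpreb1, with 0 and 0.131 against 1.66 and 2.05 RPKM, reached 1 RPKM in the B7-H4-null libraries only, so the filter fixed its direction. Of 9 T and NK cell markers 8 stayed under 1 RPKM, with Nkg7 at 21.0 to 39.2 RPKM the exception. The 7 erythroid markers in the table summed to 1.49 to 4.12 RPKM.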

How the data were processed

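RNA of 4 sorted samples, 2 per genotype, was read from 1 table of gene values. Per the submitters' processing notes, reads were aligned with TopHat2 2.0.12 to GRCm38. For the counting program, its annotation, its use of strand and its treatment of reads that match several genes, the sources used here say nothing. The table deposited by the authors holds RPKM values. Nearly all of them came out as whole reads within 0.01 read (14604 of the 14608 genes above 0 in all libraries), which gave the library totals and the reads per gene. Genes were matched to symbols by their gene ID, 25275 of 27179.

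Genotypes were compared with limma 3.58.1 (R 4.3.3, mean-variance trend) on log2(RPKM + 1), over genes that reached 1 RPKM in 2 or more libraries, with Benjamini-Hochberg adjustment and a threshold of 0.05. A fold change on this scale understates that of low genes. An exact permutation test of 2 samples against 2 cannot go below p = 0.33. The fit was tested on simulated data. Intervals of reads are exact Poisson and those of ratios exact binomial, both 95% and for counting error only.

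The members and lists were chosen with earlier results of these data known. Named are all members, up to 4 genes of each list with the smallest p, the 3 genes nearest to Myd88, the sort markers and Vtcn1. Xist, the Y-linked genes and the genes that overlap Myd88 or Irak4 were chosen after their values were seen, and so were the absent macrophage and dendritic cell markers. The same holds for Ly6c2, Csf1r, Ccr2, Adgre1, Ptgs2, Cxcl1, S100a8, S100a9, Camp, Ngp, Csf3r, Stfa2l1 and Padi4. The 12 alternatives cover the pseudocount, the filter, the scaling, the trend, the replicate block, voom on the recovered reads and leaving out each library. Scaling of the counts of groups that do not overlap, and of the spread of Irak4, was added after seeing the data.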

Additional observations from a re-analysis of the deposited data

How the results depend on the processing

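Under all 12 alternatives 0 members passed the threshold in either direction. Of the 93 values of single members under them, 89 kept their direction and their side of the threshold and 4 turned: Tlr2 to 0.33 without wild type replicate 2 and to 0.43 without B7-H4-null replicate 1, Tlr13 to 0.60 without wild type replicate 2, and Irak4 to −0.0025 without B7-H4-null replicate 1. With each library left out in turn, Tlr2 ranged from −0.98 to 0.43, Tlr13 from −1.34 to 0.60 and Irak4 from −0.0025 to 0.0135. The adjusted p of Tlr1 ranged from 0.165 to 0.644 and that of Tlr4 from 0.136 to 0.734. Over all genes, 5 were higher and 7 lower in B7-H4-null. Without a filter on low values 20517 genes were tested and both counts were 0, with 799 and 1088 at an unadjusted p under 0.05, and leaving out 1 library gave 0 to 36 higher and 0 to 20 lower. With the replicate number as a block (replicate block) 12 genes were higher and 9 lower. The labels give the numbers no shared source, the deviations of same-numbered libraries correlated at 0.247 over 12107 genes, and with 2 numbers the pairing is not established. Of the 60 list medians under the alternatives 52 moved by less than the spread between replicates. That of the inhibitors was −0.16 with median-ratio scaling, and that of the other receptors −0.77 with a filter at 5 RPKM, which leaves 2 genes. Without each library in turn the median ranged from −0.22 to 0.16 for the co-receptors, from −0.25 to −0.18 for the inhibitors and from −0.32 to 0.041 for the other receptors. The causes of these shifts were not tested beyond the number of genes or libraries left. Depth limits Tlr8, with 3 to 61 reads, and Tlr9, with 22 to 38.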

Other observations

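Several genes that work beside the receptors were, like Tlr2 and Tlr8, higher in the libraries numbered 2 of both genotypes. They were chosen after their values were seen. Cd14, the lipopolysaccharide co-receptor of Tlr4, had 32.9 and 116 RPKM in wild type replicates 1 and 2 and 17.7 and 46.5 RPKM in B7-H4-null (limma adjusted p = 0.565 between genotypes). Ctss, a protease of endosomes, had 28.9 and 191 against 18.2 and 90.8 RPKM (limma adjusted p = 0.76). Irf5, a transcription factor activated through Myd88, had 28.4 and 88.1 against 30.5 and 49.6 RPKM (limma adjusted p = 0.82). In Cd14, Ctss and Irf5 the libraries of 1 genotype differed more than the genotype means. Ly96, the partner of Tlr4 in binding lipopolysaccharide, did not show this course, with 2.62 and 2.50 against 1.76 and 2.15 RPKM (limma adjusted p = 0.711). Its values rest on 16 and 15 against 10 and 14 reads, so its course is uncertain.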
